A study of Mus musculus with 8 samples.

Results

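The genes of the TNF ligand and receptor superfamilies were examined in whole primary mammary tumours with and without suppression of miR-21. Members were chosen by name, as all genes of the table with a Tnfsf or Tnfrsf number, together with Tnf, Lta, Ltb, Ltbr, Fas, Fasl, Cd27, Cd70, Cd40, Cd40lg, Ngfr, Eda and Edar. This gave 45 of the 27179 genes in the table, namely 18 ligands, 26 receptors and the antisense gene Tnfsf13os. The rule uses no measured value. Enough reads for a test were found for 40 members. The other 5, Cd70, Tnfsf18, Edar, Tnfrsf13c and Tnfrsf17, were left out of the fit for low counts and are given as values.

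RNA was sequenced from 8 tumours of female BALB/c mice, 7 to 8 weeks old when tumour cells were injected, 4 of the 4T1.13-VC line and 4 of the 4T1.13-miR-21-KD line. 4T1.13 is a metastatic line of the murine 4T1 mammary carcinoma, and it was grown in the mammary fat pad. The miR-21-KD line carried a lentiviral miArrest vector whose H1 promoter drives an RNA made to bind and hold the mature miR-21. A scrambled sequence took its place in the VC line. Both vectors also carry mCherry and hygromycin resistance. Each line was a pool of 6 clones, so that a group stands for 1 pool and not for separate knockdowns. The vector was in the tumour cells alone, and the immunocompetent hosts kept their own miR-21. The labels give day 14 after injection for all 8 tumours, when the miR-21-KD tumours were starting to regress, while the text of the paper gives an earlier day. The labels number the tumours but do not say that each came from its own mouse, so p-values measure the spread between these 8 samples.

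Ligands of this superfamily are trimers, made mostly as membrane proteins, and many can be shed from the cell. Their receptors signal through TRAF adaptors to NF-kappaB and the MAP kinases or, where they carry a death domain, through FADD and caspases to apoptosis. In tumours the family is known for the co-stimulation of T cells (OX40, GITR, CD27, CD40), for killing by lymphocytes through Fas and TRAIL, and for the inflammatory actions of TNF and the lymphotoxins.

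The 8 libraries held 12134849 to 13592695 reads counted on genes, so that 3 counts, the limit which a count of 0 allows for counting error alone, correspond to 0.221 to 0.247 CPM (counts relative to the scaled library total). The first principal component held 67.5% of the variance and had all VC tumours on one side. VC replicate 4 stood apart on the second (13.5%) and had the highest sum of B cell markers, 215.6 CPM against 16.9 to 20.8 CPM in the other VC tumours. Calls of members that changed without it are given both ways. Mir21a had 0 counts in all 8 tumours, so the table gives no check of the knockdown. Epcam, Krt8 and Krt18, which mark epithelial cells, the carcinoma cells among them, were present in both groups. Their means were 25.6, 808 and 1022 CPM in VC against 97.6, 439 and 460 CPM in miR-21-KD tumours. The means of the other epithelial markers read, Cdh1, Krt7, Krt14, Krt5 and Krt19, were all higher in miR-21-KD tumours.

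Of the 40 members tested, 16 were higher and 1 was lower in miR-21-KD tumours, and 23 did not pass the test (edgeR quasi-likelihood test, adjusted p under 0.05 over all 14382 genes tested). This is 40.0% higher and 2.5% lower. Of all tested genes 39.1% were called, made up of 19.6% higher and 19.5% lower. The 16 higher members were Tnf, Ltb, Tnfsf14, Tnfrsf1a, Cd40lg, Tnfsf4, Cd40, Tnfrsf4, Tnfrsf9, Tnfrsf18, Fas, Fasl, Tnfrsf26, Tnfsf12, Eda and Tnfrsf21, and the lower one was Tnfrsf19. The log2 fold change was above 0 for 33 of the 40 members, with a median of 0.59 against -0.01 for all tested genes. In 12 members every miR-21-KD tumour lay above every VC tumour and in 1 below, 30.0% and 2.5% of those tested. Over all genes the groups did not overlap in 35.2%, made up of 16.3% above and 18.9% below. Scaling by library size gave 16 higher and 1 lower members, and upper-quartile scaling 18 and 1.

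The count depended on single tumours. It was 9 higher members without VC replicate 2, 6 without VC replicate 3, 9 without miR-21-KD replicate 1 and 9 without miR-21-KD replicate 4, with Tnfrsf19 lower each time. In the same fits the higher calls over all genes fell to 1702, 1449, 1862 and 1754 from 2826. Without VC replicate 4 the count was 21 higher and 2 lower. In every one of the 8 omissions, and in every other alternative in which they were tested, 7 members were called, namely Fas, Tnf, Tnfrsf19, Tnfrsf4, Tnfsf12, Tnfsf14 and Tnfsf4. The filter on low counts was passed through the miR-21-KD tumours alone by 8 of the 40 members tested, the called Cd40lg, Eda, Fasl and Tnfsf4 and the uncalled Lta, Tnfrsf13b, Tnfrsf8 and Tnfsf13os, so their presence among the tested members is tied to the group in which they are high. A minimum of 10 counts in every tumour leaves out these 8 and 2 more. With it 30 members were tested, 16 higher and 1 lower. The 16 were not the same genes, as Cd27, Ltbr, Tnfrsf14 and Tnfsf8 were called and Cd40lg, Eda, Fasl and Tnfsf4 were not tested. In the same fit 2731 of 13083 genes were higher and 2381 were lower.

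**Figure D1:**
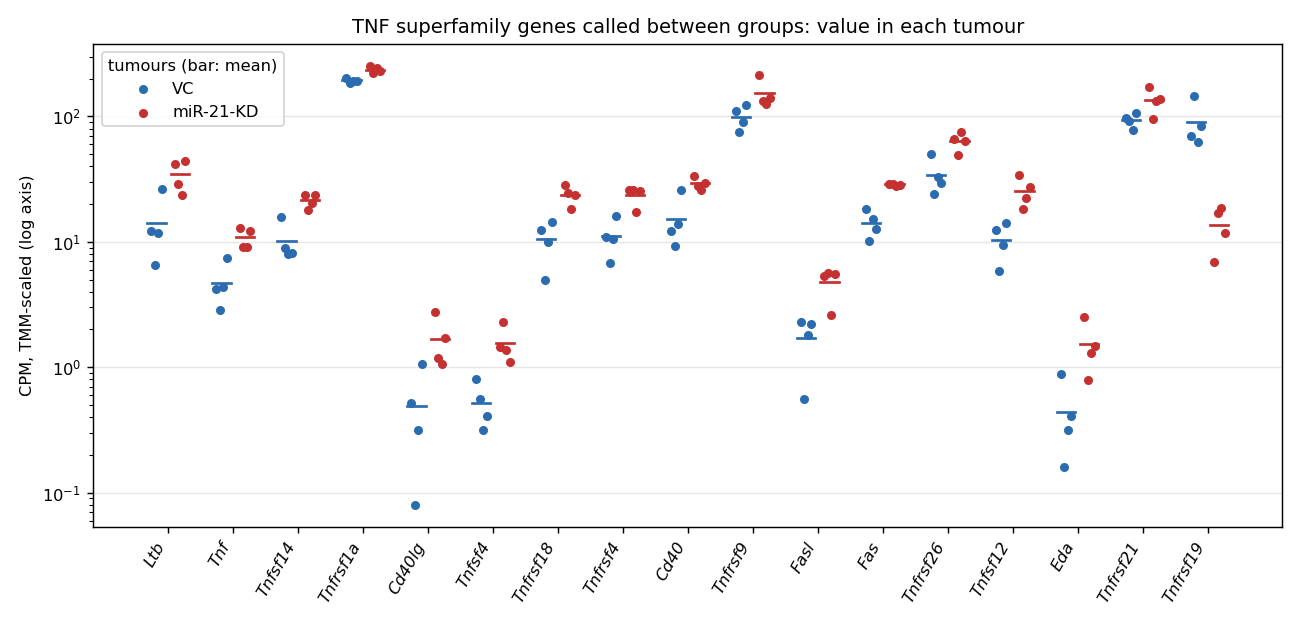
CPM in each tumour (log axis) of the 17 members called, with VC tumours in blue, miR-21-KD tumours in red and bars at the group means. The red points lie above all blue ones for 11 of the 16 higher members, and for Tnfrsf19 they lie below, at 6.95 to 18.7 against 62.3 to 146 CPM.

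The members divide by role. In the TNF, lymphotoxin and LIGHT axis 4 of 8 were higher, in T cell co-stimulation 6 of 12 tested, among death ligands and receptors 3 of 7, in the RANK and TWEAK systems 1 of 5 and in the BAFF and APRIL system 0 of 3 tested. The epithelial and neural group had 2 higher and 1 lower of 4 tested. Of all tested genes 19.6% were called higher. The share in the RANK and TWEAK systems was near this, at 20.0%, that of the death group was 42.9%, and the number of genes behind each share is small. By side, 8 of 16 ligands were higher with a median log2 fold change of 1.02. Of 23 receptors 8 were higher and 1 lower, with a median of 0.53. The ligands Cd40lg, Eda, Fasl, Tnfsf4 and Lta passed the filter on low counts through the miR-21-KD tumours alone. So did the receptors Tnfrsf13b and Tnfrsf8. The shares and medians by role and by side are therefore tied to the group in which these members are high, and the difference between sides was not tested.

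**Figure D2:**
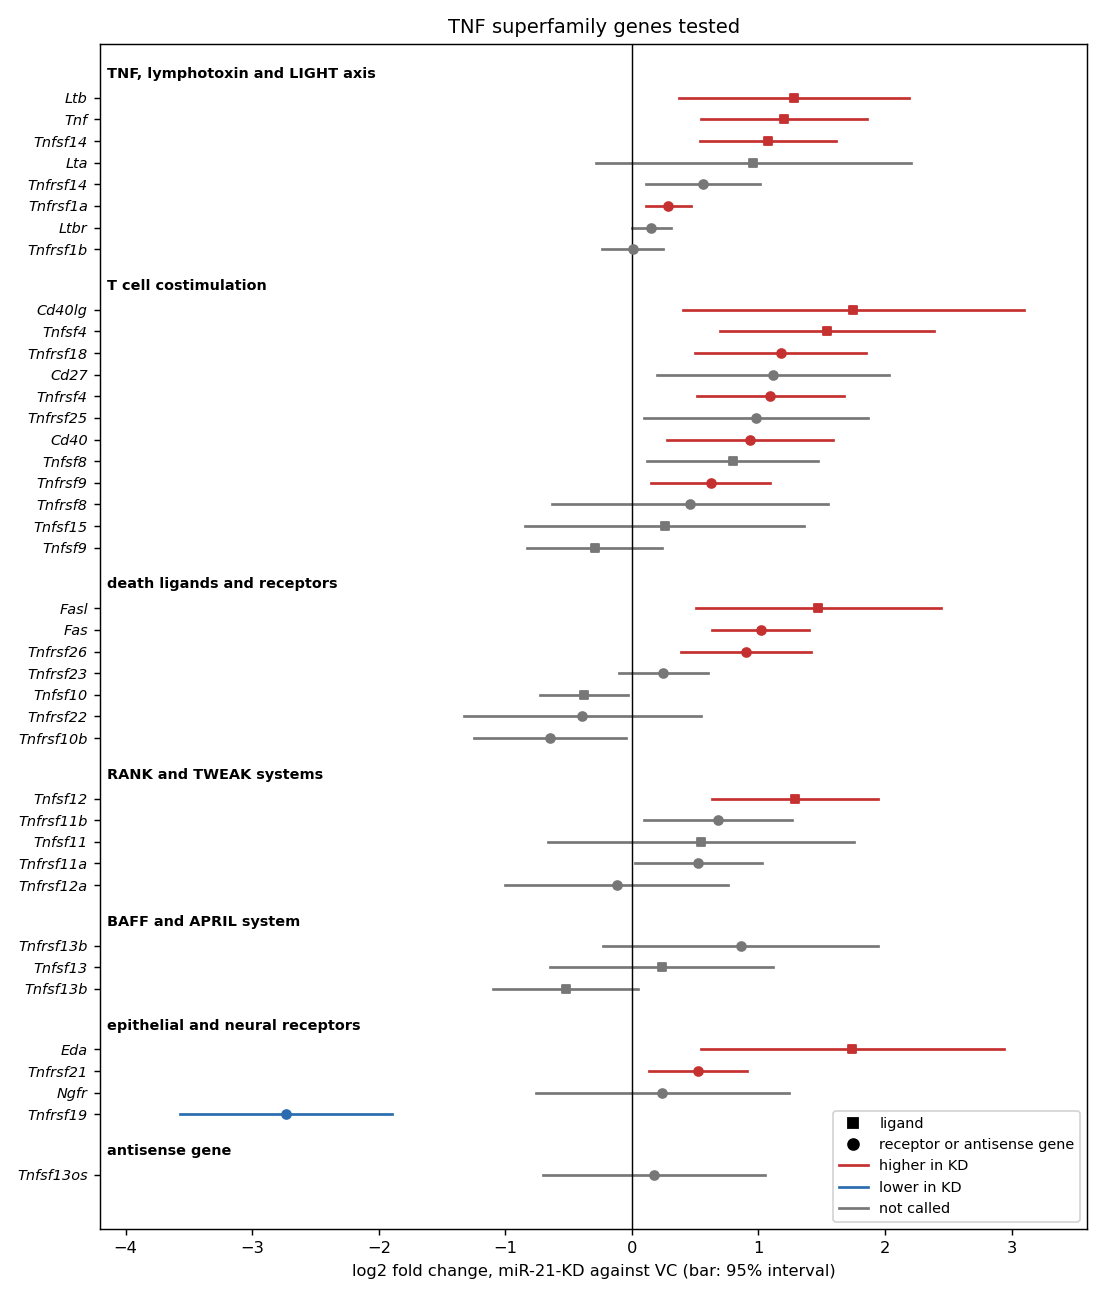
Log2 fold changes of the 40 members tested, miR-21-KD against VC, with 95% intervals, grouped by role and sorted within it. Squares are ligands, circles are receptors (and Tnfsf13os), red is higher, blue is lower and grey did not pass the test. Tnfrsf19 stands alone at -2.74.

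Tnf (Entrez 21926), the founding cytokine of the family, was at 4.20, 2.87, 4.33 and 7.44 CPM in VC replicates 1 to 4 and at 12.9, 9.12, 9.17 and 12.2 CPM in miR-21-KD replicates 1 to 4. The lowest miR-21-KD tumour was above the highest VC tumour. Tnf rose 2.30-fold (95% interval 1.46 to 3.63), a log2 fold change of 1.20 with an adjusted p of 0.0147 from edgeR. Ltb (Entrez 16994), the membrane anchor of the lymphotoxin trimer, was at 12.2, 6.54, 11.7 and 26.5 CPM in VC and at 41.6, 28.9, 23.5 and 44.5 CPM in miR-21-KD tumours. VC replicate 4 was above miR-21-KD replicate 3, so the groups overlapped in Ltb. Its mean rose 2.43-fold (95% interval 1.30 to 4.57, adjusted p = 0.0342 from edgeR), and its log2 fold change was 1.28, or 1.76 without VC replicate 4. Tnfsf14 (Entrez 50930), which encodes LIGHT, a ligand of HVEM and of the lymphotoxin beta receptor, was at 15.8, 8.86, 8.04 and 8.09 CPM in VC and at 23.8, 17.9, 20.5 and 23.8 CPM in miR-21-KD tumours. VC replicate 1 was the highest control and still lay below all miR-21-KD tumours. The difference in Tnfsf14 was 2.10-fold (95% interval 1.45 to 3.05, adjusted p = 0.0119 from edgeR). Lta, which forms the soluble lymphotoxin trimer, ranged from 0.319 to 2.21 CPM in VC and from 1.38 to 3.88 CPM in miR-21-KD tumours and did not pass the test (log2 fold change 0.96, 95% interval -0.29 to 2.20, adjusted p = 0.186 from edgeR). Without VC replicate 4 the log2 fold change of Lta was 1.49 and its adjusted p 0.0561.

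The receptors of these ligands had log2 fold changes of 0.00 to 0.56, against 0.96 to 1.28 for the ligands, and the difference was not tested. Tnfrsf1a (Entrez 21937), the death-domain receptor of TNF that most cells carry, was at 204, 186, 193 and 190 CPM in VC and at 252, 221, 241 and 229 CPM in miR-21-KD tumours. All miR-21-KD tumours lay above the VC tumours, by 1.22-fold in the mean (95% interval 1.08 to 1.38, adjusted p = 0.0210 from edgeR). Tnfrsf1b, the second TNF receptor, which is found mainly on leukocytes and endothelium, was at 217, 254, 218 and 246 CPM in VC and at 271, 210, 221 and 236 CPM in miR-21-KD tumours. The groups lay over each other, and the 95% interval of its log2 fold change ran from -0.23 to 0.24. Ltbr, the lymphotoxin beta receptor of stromal and myeloid cells, was at 91.1, 101, 96.9 and 91.6 CPM in VC and at 102, 106, 108 and 107 CPM in miR-21-KD tumours. The groups of Ltbr were apart by a narrow margin, and its log2 fold change of 0.15 had an adjusted p of 0.0994 from edgeR. Tnfrsf14, which encodes HVEM, was at 6.05, 6.54, 5.91 and 8.26 CPM in VC and at 11.96, 10.1, 7.14 and 10.3 CPM in miR-21-KD tumours. Only miR-21-KD replicate 3 fell within reach of the VC tumours, and the adjusted p was 0.0504 from edgeR, or 0.0430 with the replicate number as a block.

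Among these 8 genes the calls of Tnf and Tnfsf14 held in all omissions. Ltb lost its call without VC replicate 1, 2 or 3 or miR-21-KD replicate 1 or 4, with an adjusted p of at most 0.0910. Tnfrsf1a lost it without VC replicate 2 or 3 or miR-21-KD replicate 3, with an adjusted p of at most 0.0704, and at 0.0541 when genes with low counts were kept. Tnfrsf14 passed without VC replicate 4 (0.0339) and without miR-21-KD replicate 3 (0.0343).

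Ltb is also 1 of 4 members with a match to the NF-kappaB consensus in the window from 250 bases before to 50 bases after a transcription start (RefSeq promoters, GRCm38.p6, both strands searched). Windows were given for 34 members, so the share was 11.8% of genes, against 9.55% of all genes with a window. Among tested genes it was 13.3% of the 30 members with a window against 12.5% of all. By windows it was 10.5% of those of members against 8.46% of all. The stretch of the Ltb promoter at chr17:35194395-35194454 and that of Tnfrsf9 at chr4:150927931-150927991 (both plus strand) are shown because both genes were higher. In them the matches begin 87 and 43 bases before the start. The Tnfrsf9 stretch lies inside the gene (chr4:150920155-150946104), before an internal start. Capitals mark the match. In Tnfrsf9 matches on both strands overlap. Tnf, Fas and the other members with a window hold no such letters there, which says nothing of binding.
Ltb promoter: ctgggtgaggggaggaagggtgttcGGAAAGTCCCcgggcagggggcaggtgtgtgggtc
Tnfrsf9 promoter: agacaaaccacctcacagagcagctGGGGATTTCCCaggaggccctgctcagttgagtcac
The remaining matches were in Tnfrsf8 and Tnfrsf25, neither of which passed the test.

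In T cell co-stimulation the pair of OX40 (Tnfrsf4), a receptor of activated T cells, and its ligand (Tnfsf4) rose on both sides. Tnfrsf4 (Entrez 22163) was at 10.9, 6.78, 10.6 and 16.1 CPM in VC and at 26.0, 26.1, 17.2 and 25.4 CPM in miR-21-KD tumours. Its groups did not overlap, although miR-21-KD replicate 3 was lower than the others of its group and close to VC replicate 4. The rise of Tnfrsf4 was 2.13-fold (95% interval 1.43 to 3.19, adjusted p = 0.0139 from edgeR). Tnfsf4 (Entrez 22164), the ligand carried by antigen-presenting cells, was low, at 0.811, 0.558, 0.315 and 0.409 CPM in VC and at 1.46, 2.28, 1.38 and 1.10 CPM in miR-21-KD tumours, which rests on 4 to 29 counts per tumour. All miR-21-KD tumours were above the VC tumours, and the fold change was 2.91 (95% interval 1.62 to 5.24, adjusted p = 0.0149 from edgeR). Both genes were called in every omission.

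CD40 on antigen-presenting cells and its ligand on activated helper T cells also rose together. Cd40lg (Entrez 21947) was at 0.516, 0.0798, 0.315 and 1.06 CPM in VC and at 2.75, 1.18, 1.05 and 1.72 CPM in miR-21-KD tumours, from 1 to 34 counts. VC replicate 4 lay just above the lowest miR-21-KD tumour, and the other VC tumours lay below all of them. The change of Cd40lg was 3.36-fold with a wide 95% interval of 1.32 to 8.55 (adjusted p = 0.0448 from edgeR), and its log2 fold change of 1.75 became 2.40 without VC replicate 4. Cd40 (Entrez 21939) was at 12.1, 9.25, 13.9 and 26.0 CPM in VC and at 33.5, 27.98, 26.1 and 29.4 CPM in miR-21-KD tumours. VC replicate 4 reached the lower edge of the miR-21-KD group without crossing it, and the rise was 1.91-fold (95% interval 1.21 to 3.01, adjusted p = 0.0335 from edgeR). Each of Cd40 and Cd40lg was called in 2 of the 8 omissions, those of VC replicate 4 and miR-21-KD replicate 2, and adjusted p reached 0.0883 and 0.117 in the others. Cd40lg was also lost when genes with low counts were kept (adjusted p = 0.0581 from edgeR).

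GITR and 4-1BB, receptors of activated and regulatory T cells, rose without a call in their ligands. Tnfrsf18 (Entrez 21936), the gene of GITR, was at 12.5, 4.95, 10.0 and 14.4 CPM in VC and at 28.3, 24.4, 18.3 and 23.6 CPM in miR-21-KD tumours. Every miR-21-KD tumour was above the VC tumours, 2.26-fold in the mean (95% interval 1.42 to 3.61, adjusted p = 0.0173 from edgeR), and the call was lost only without VC replicate 3 (adjusted p = 0.0520). Reads from the antisense gene Gm16008, which shares 18.7% of the 50-base stretches of Tnfrsf18, could be counted with it if strand was not used, and the counts of Gm16008 itself were 3 to 12 per tumour. Its ligand Tnfsf18 was too low to test, at 0.399 to 0.737 CPM in VC against 0.157 to 0.647 CPM in miR-21-KD tumours. Tnfrsf9 (Entrez 21942), the gene of 4-1BB, was at 109, 74.8, 90.2 and 122 CPM in VC and at 213, 133, 125 and 139 CPM in miR-21-KD tumours. The groups were apart, with miR-21-KD replicate 1 far above the others of its group. Tnfrsf9 rose 1.54-fold (95% interval 1.11 to 2.14, adjusted p = 0.0428 from edgeR), was called in 2 of the 8 omissions (those of VC replicate 4 and miR-21-KD replicate 2) with an adjusted p of at most 0.109 in the others, and was at 0.0510 when genes with low counts were kept. Tnfsf9, the ligand of Tnfrsf9, was at 18.3, 15.4, 22.9 and 17.9 CPM in VC and at 9.21, 19.5, 18.0 and 14.0 CPM in miR-21-KD tumours, which overlapped (log2 fold change -0.29, 95% interval -0.83 to 0.24).

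Cd27, the receptor of naive and memory T cells, was at 5.46, 2.31, 5.52 and 10.1 CPM in VC and at 14.7, 13.8, 7.79 and 14.4 CPM in miR-21-KD tumours. VC replicate 4 was above miR-21-KD replicate 3. The log2 fold change was 1.12 (standard error 0.40) and the adjusted p 0.0548 from edgeR, 0.0421 with the replicate block and 0.0173 without VC replicate 4. Its ligand Cd70 had 2 to 6 counts per tumour and was not tested. Tnfrsf25, the receptor DR3, ranged from 1.10 to 3.43 CPM in VC and from 2.43 to 5.42 CPM in miR-21-KD tumours (adjusted p = 0.0729 from edgeR). With the block its adjusted p was 0.0272, and without VC replicate 4 it was 0.0188. Tnfsf8, the ligand of CD30, had a log2 fold change of 0.80 (adjusted p = 0.0617 from edgeR), which passed without VC replicate 4 (0.0369). Tnfrsf8 and Tnfsf15, the genes of CD30 and of the DR3 ligand, were at most 2.51 and 2.10 CPM in any tumour and had log2 fold changes of 0.46 and 0.26 with adjusted p values of 0.467 and 0.691 from edgeR. Without VC replicate 4, the VC tumour with the highest value of Tnfrsf8, these were 1.06 and 0.57, with adjusted p values of 0.0575 and 0.396.

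Whole tumours are mixtures of cells, and more cells of a type cannot be told apart from more RNA per cell. Markers of some leukocytes were higher beside the co-stimulatory genes. Of 12 T cell markers 9 were higher, and their summed level was 184 to 384 CPM in VC against 447 to 756 CPM in miR-21-KD tumours, a ratio of means of 1.98. In every tumour Thy1, which fibroblasts also express, exceeded the other 11 together, at 133 to 238 CPM in VC and 277 to 407 CPM in miR-21-KD tumours. Without Thy1 the sums were 50.1 to 186 and 169 to 349 CPM, so that VC replicate 4 lay above miR-21-KD replicate 3. Of 5 markers of regulatory T cells 4 were higher (45.8 to 81.7 against 99.4 to 145 CPM), of 12 markers of macrophages and monocytes 10 (3756 to 5840 against 6872 to 11678 CPM) and of 8 markers of dendritic cells 4 (61.2 to 190 against 247 to 417 CPM). Of 7 NK cell markers 2 were higher, and the sums overlapped, at 20.9 to 112 against 75.6 to 128 CPM. Without VC replicate 4 the higher markers were 12 of 12 for T cells, 4 of 5 for regulatory T cells, 11 of 12 for macrophages and monocytes, 6 of 8 for dendritic cells and 6 of 7 for NK cells. With the replicate block they were 12 of 12 for T cells and 6 of 8 for dendritic cells, with the other 3 lists at the counts of all tumours. None of these marker genes is a member, and the part of these cells in the members' changes was not tested.

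**Figure D3:**
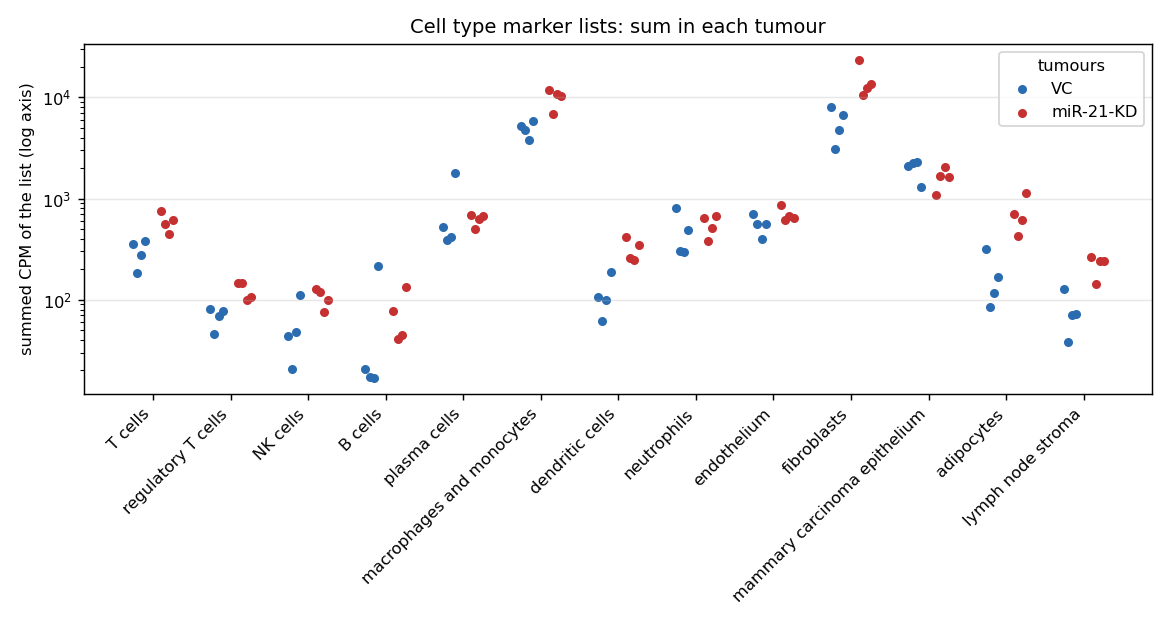
Summed CPM of each cell type marker list in each tumour (log axis), VC in blue and miR-21-KD in red. The T cell, regulatory T cell, macrophage, dendritic cell, fibroblast, adipocyte and lymph node stroma sums of all miR-21-KD tumours lie above those of the VC tumours. The T cell, macrophage and lymph node stroma sums overlap without their most abundant genes, Thy1, Mrc1 and Pdpn. VC replicate 4 leads the B cell and plasma cell sums.

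Among death ligands and receptors, Fas and its ligand rose together. Fas (Entrez 14102), a receptor whose death domain recruits FADD, was at 18.3, 10.2, 15.2 and 12.8 CPM in VC and at 29.1, 29.1, 27.8 and 28.6 CPM in miR-21-KD tumours. The miR-21-KD tumours lay close together, with a standard deviation of 0.593 CPM against 3.45 CPM in VC, and all were above the VC tumours. Fas rose 2.03-fold (95% interval 1.55 to 2.64, adjusted p = 0.00632 from edgeR) and was called in all 8 omissions. Fasl (Entrez 14103), the ligand of cytotoxic T and NK cells, was at 2.29, 0.558, 1.81 and 2.21 CPM in VC and at 5.33, 5.66, 2.60 and 5.56 CPM in miR-21-KD tumours. Although miR-21-KD replicate 3 was less than the others of its group, the groups did not overlap, and the fold change of Fasl was 2.78 (95% interval 1.42 to 5.43, adjusted p = 0.0266 from edgeR). The call of Fasl was lost without VC replicate 3 or miR-21-KD replicate 1 or 4, with an adjusted p of at most 0.0690.

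The line was made to sequester miR-21, and Fasl is the member with the longest match to its seed. The mature sequence (RefSeq, GRCm38.p6, chr11:86584120-86584141, minus strand) is shown with the seed, bases 2 to 8, in capitals. Below it is the stretch of the Fasl 3′ UTR (chr1:161781117-161781146, minus strand) that begins 11 bases before a match to the seed followed by A, in capitals, with the match beginning at base 441 of 887 of the UTR.
mmu-miR-21a-5p: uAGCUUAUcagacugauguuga
Fasl 3′ UTR: tcatttgactgATAAGCTAgagactgaaaa
Shorter matches of 7 bases (ATAAGCT or TAAGCTA) were found in Edar, Tnfrsf26, Tnfsf10, Tnfsf13b and Tnfsf18. With Fasl, 6 of the 44 members with an annotated 3′ UTR (13.6%) held a match in the longest UTR, and 4 of the 39 tested ones (10.3%), against 1635 of 13337 tested genes (12.3%). Of the tested members with a match, Fasl and Tnfrsf26 were higher, and Tnfsf10 and Tnfsf13b had log2 fold changes of -0.38 and -0.52 that did not pass the test. A match is a description of the sequence and was not tested as a site.

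Neither TRAIL nor its death receptor passed the test. Tnfsf10, the gene of TRAIL, was at 51.5, 48.7, 57.9 and 39.3 CPM in VC and at 47.3, 37.7, 33.0 and 33.9 CPM in miR-21-KD tumours. Tnfrsf10b, its death receptor, was at 38.6, 33.8, 38.5 and 28.3 CPM in VC and at 13.4, 34.7, 22.2 and 18.6 CPM in miR-21-KD tumours. In both genes the means were lower in miR-21-KD tumours and the groups overlapped. The log2 fold changes were -0.38 and -0.65, with adjusted p values of 0.0754 and 0.0797 from edgeR. Tnfrsf10b passed without miR-21-KD replicate 2, the tumour with the highest value of its group (adjusted p = 0.00647), and Tnfsf10 passed without VC replicate 4 (0.0317) or miR-21-KD replicate 1 (0.0346). Next to one another on chromosome 7 lie Tnfrsf26, Tnfrsf22 and Tnfrsf23, of which the last 2 encode decoy receptors of TRAIL in the mouse. Tnfrsf26 (Entrez 244237) was at 49.998, 24.1, 32.7 and 29.6 CPM in VC and at 66.4, 49.0, 75.6 and 63.6 CPM in miR-21-KD tumours. VC replicate 1 was just above miR-21-KD replicate 2 in this gene, and the rise was 1.87-fold (95% interval 1.31 to 2.66, adjusted p = 0.0170 from edgeR, or 0.0514 without VC replicate 3). Tnfrsf22 and Tnfrsf23 had log2 fold changes of -0.39 and 0.25 with adjusted p values of 0.468 and 0.222 from edgeR, and Tnfrsf22 was at -0.59 without VC replicate 4 (adjusted p = 0.263). They share 719 stretches of 50 bases with each other, so reads could be divided between them by the counting and their values are uncertain.

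In the RANK and TWEAK systems the ligand TWEAK rose and its receptor Fn14 did not pass the test. Tnfsf12 (Entrez 21944), the gene of TWEAK, a cytokine made largely by macrophages, was at 12.3, 5.90, 9.38 and 14.1 CPM in VC and at 34.2, 18.2, 22.4 and 27.2 CPM in miR-21-KD tumours. The groups did not overlap, and Tnfsf12 rose 2.45-fold (95% interval 1.55 to 3.85, adjusted p = 0.0123 from edgeR), called in every omission. It shares 46.8% of its 50-base stretches with the read-through gene Tnfsfm13, which had 0 counts in all tumours, so a part of the reads may have been left uncounted. Tnfrsf12a, the gene of Fn14, was at 116, 118, 146 and 87.0 CPM in VC and at 38.3, 172, 129 and 89.9 CPM in miR-21-KD tumours. Its miR-21-KD tumours spread over more than the whole VC range, and the log2 fold change of -0.12 (95% interval -1.003 to 0.76) turned to 0.16 without miR-21-KD replicate 1. Tnfrsf11b, which encodes osteoprotegerin, the decoy of RANKL, was at 32.2, 15.1, 17.1 and 14.5 CPM in VC and at 28.2, 30.4, 37.7 and 30.0 CPM in miR-21-KD tumours. VC replicate 1 lay among the miR-21-KD tumours. Its adjusted p was 0.0640 from edgeR, 0.0494 with the block, and 0.00562 without VC replicate 1. Tnfrsf11a, the gene of RANK, had a log2 fold change of 0.53 (adjusted p = 0.0846 from edgeR, or 0.0208 without VC replicate 4), and Tnfsf11, the gene of RANKL, one of 0.55 (95% interval -0.66 to 1.76, adjusted p = 0.432 from edgeR).

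No member of the BAFF and APRIL system, which keeps B cells and plasma cells alive, passed the test. Tnfsf13b, the gene of BAFF, was at 20.4, 12.9, 27.3 and 15.9 CPM in VC and at 10.4, 17.4, 13.6 and 11.7 CPM in miR-21-KD tumours, which overlapped (log2 fold change -0.52, 95% interval -1.10 to 0.05). The BAFF receptor of B cells, Tnfrsf13c, followed single tumours, at 0.295, 0.319, 0.236 and 13.2 CPM in VC and at 1.13, 0.550, 0.649 and 4.85 CPM in miR-21-KD tumours. Replicate 4 of each group was highest, as it was in the sum of B cell markers, at 215.6 CPM in VC against 134.7 CPM in miR-21-KD tumours. The other VC tumours, at 16.9 to 20.8 CPM, lay below all miR-21-KD tumours, at 41.0 to 134.7 CPM. None of the 5 B cell markers tested was called with all tumours, while 2, Cd79b and Cd22, were higher without VC replicate 4. Tnfrsf13b, the gene of TACI, was at 0.811, 0.479, 0.788 and 2.53 CPM in VC and at 2.34, 2.12, 1.54 and 2.35 CPM in miR-21-KD tumours. VC replicate 4 was the highest of all 8 and the other VC tumours were below every miR-21-KD tumour. The adjusted p of Tnfrsf13b was 0.176 from edgeR with all tumours and 0.0122 without VC replicate 4 (log2 fold change 0.86 and 1.57). Tnfrsf17, the plasma cell receptor BCMA, had 1 to 6 counts in VC against 6 to 13 in miR-21-KD tumours and was not tested. Tnfsf13, the gene of APRIL, and its antisense gene Tnfsf13os were below 2 CPM in every tumour, with adjusted p values of 0.650 and 0.736 from edgeR, and 57.3% of the 50-base stretches of Tnfsf13 are shared with Tnfsfm13.

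Tnfrsf19 was the one member to fall. It encodes TROY, a receptor known from stem and progenitor cells of epithelia and from neural cells. Tnfrsf19 (Entrez 29820, chr14:60963834-61046855 in GRCm38) was at 69.2, 146, 62.3 and 84.1 CPM in VC and at 6.95, 16.8, 18.7 and 11.8 CPM in miR-21-KD tumours. The lowest VC tumour was more than 3-fold above the highest miR-21-KD tumour. Its mean went from 90.4 ± 38.1 to 13.6 ± 5.27 CPM (SD, n = 4 each), with a log2 fold change of -2.74 (standard error 0.37, 95% interval -3.57 to -1.90, adjusted p = 0.00520 from edgeR). Its log2 fold change was the 35th lowest of the 14382 genes tested, and over all omissions and alternatives it stayed between -2.93 and -2.41 with a call each time. The 8 epithelial markers did not move as one. Of these, 6 were higher and Krt18 was lower (log2 fold change -1.15, adjusted p = 0.0374 from edgeR). The sum of the 8 was 1308 to 2270 CPM in VC against 1087 to 2066 CPM in miR-21-KD tumours. Without Krt18, the most abundant of them, it was 631 to 1101 CPM in VC against 898 to 1503 CPM in miR-21-KD tumours. The groups overlapped in both sums. With the replicate block 6 were higher and 2, Krt8 and Krt18, lower, and without VC replicate 4 the counts were 5 and 1. The part of the carcinoma cell content in the fall of Tnfrsf19 was not tested.

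The other members of the epithelial and neural group rose or did not pass. Eda (Entrez 13607), the ligand ectodysplasin of hair, tooth and gland development, was at 0.885, 0.160, 0.315 and 0.409 CPM in VC and at 2.51, 0.786, 1.30 and 1.49 CPM in miR-21-KD tumours, from 2 to 31 counts. VC replicate 1 lay above the lowest miR-21-KD tumour. The fold change of Eda was 3.35 (95% interval 1.46 to 7.66, adjusted p = 0.0307 from edgeR), and it was called in the omissions of VC replicate 1 and miR-21-KD replicate 2 but in none of the other 6, where adjusted p reached 0.0867 (0.0573 without VC replicate 4). Its receptor Edar had 2 to 13 counts and was not tested. Tnfrsf21 (Entrez 94185), the death receptor DR6, was at 97.0, 91.6, 78.4 and 106 CPM in VC and at 170, 96.1, 133 and 138 CPM in miR-21-KD tumours. The second miR-21-KD tumour lay within the VC range and the other 3 above it. Tnfrsf21 rose 1.44-fold (95% interval 1.10 to 1.88, adjusted p = 0.0390 from edgeR), called in the omissions of VC replicate 4 and miR-21-KD replicate 2 and with an adjusted p of at most 0.106 in the others. Ngfr, the neurotrophin receptor p75, was at 2.88, 3.03, 3.86 and 3.11 CPM in VC and at 1.78, 6.29, 5.44 and 1.72 CPM in miR-21-KD tumours. The miR-21-KD tumours lay on both sides of the VC tumours, and the log2 fold change was 0.24 (95% interval -0.76 to 1.24, adjusted p = 0.684 from edgeR).

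Most markers of fibroblasts and adipocytes were higher in miR-21-KD tumours. Of 8 fibroblast markers 6 were higher (sum 3072 to 8060 CPM in VC against 10479 to 23412 CPM in miR-21-KD tumours) and all 5 adipocyte markers were (85.2 to 320 against 428 to 1125 CPM). Of the markers tested, 2 of 7 for endothelium, 2 of 6 for plasma cells, 0 of 6 for neutrophils and 1 of 2 for lymph node stroma were higher and none was lower. Without VC replicate 4 the higher markers were 1 of 7 for endothelium, 3 of 6 for plasma cells, 0 of 6 for neutrophils, 5 of 8 for fibroblasts, 5 of 5 for adipocytes and 2 of 2 for lymph node stroma. With the replicate block 7 of 8 fibroblast, 2 of 6 neutrophil, 1 of 5 B cell and 2 of 2 lymph node stroma markers were higher, and of the endothelial markers 3 were higher and 1 lower. The sum of the lymph node stroma list was mostly Pdpn (73.9 ± 36.9 CPM in VC and 212 ± 53.8 CPM with miR-21-KD, SD, n = 4 each), a gene that fibroblasts also express. Ccl19, a chemokine of lymph node stroma, had 0 counts in all tumours, and Ccl21a was at most 0.235 CPM. The part of these cells in the values of Tnfsf12, Eda, Tnfrsf21 and the other members was not tested.

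Ligand and receptor changes were set side by side for 24 known pairs, 18 of which had both genes tested. Both genes rose in 4 pairs, Tnf with Tnfrsf1a, Tnfsf4 with Tnfrsf4, Cd40lg with Cd40 and Fasl with Fas. In 5 pairs the ligand alone passed, namely Tnf with Tnfrsf1b, Ltb with Ltbr, Tnfsf14 with Tnfrsf14, Tnfsf14 with Ltbr and Tnfsf12 with Tnfrsf12a. The receptor alone passed in 2, Lta with Tnfrsf1a and Tnfsf9 with Tnfrsf9, and neither gene did in 7. A gene can stand in more than 1 pair, and the pairs are therefore not independent. Of the ligands in the pairs where both genes rose, Tnfsf4, Cd40lg and Fasl passed the filter on low counts through the miR-21-KD tumours alone. These pairs are therefore tied to the group in which the ligand is high, and Tnf with Tnfrsf1a is the only other. Of all tested genes 19.6% were called higher.

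**Figure D4:**
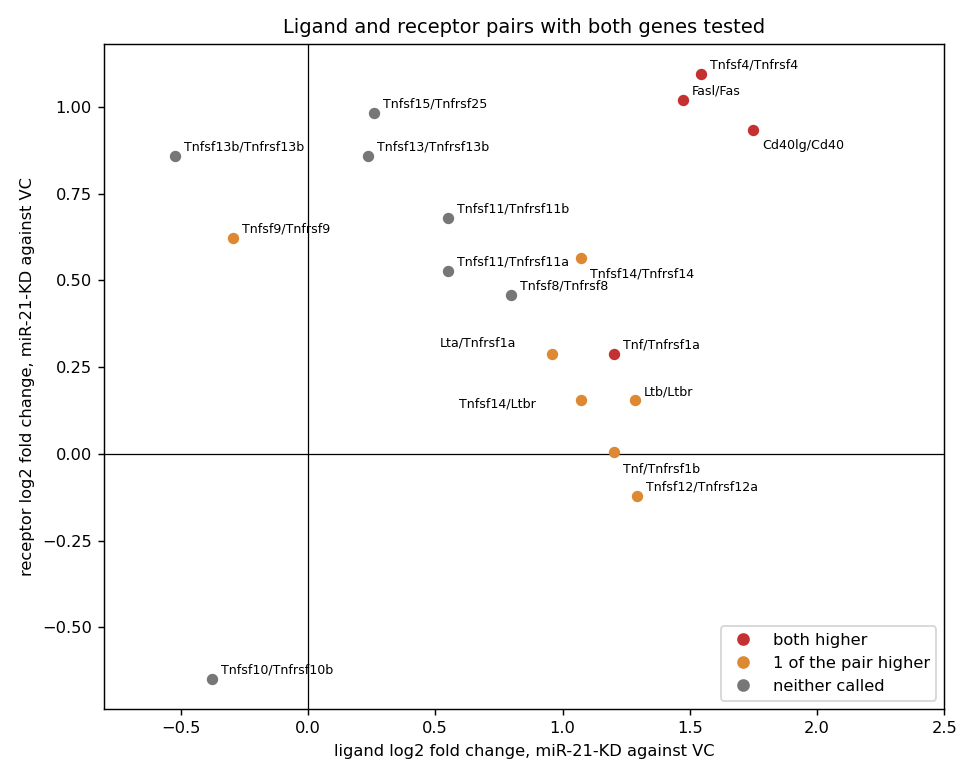
Log2 fold change of the ligand (x axis) and of the receptor (y axis), miR-21-KD against VC, for the 18 pairs with both genes tested. Red marks both genes higher, orange 1 of the pair and grey neither, and Tnfsf10 with Tnfrsf10b lies alone in the lower left, at -0.38 and -0.65.

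Levels of different members can be compared per length only. On the scale of CPM per kb of exons, Tnfrsf1a had the highest mean in VC tumours (74.6 ± 2.95, SD, n = 4). It was followed by Tnfrsf1b (61.3 ± 5.02), Tnfrsf12a (60.5 ± 12.6), Ltbr (40.4 ± 1.92) and Tnfrsf9 (36.4 ± 7.68). The order in each group is that of the means and need not hold in every tumour. Tnfrsf1b and Tnfrsf12a did not differ beyond their spread, nor did Ltbr and Tnfrsf9. Receptors filled these places, and the highest ligand in VC tumours was Tnfsf9 at 14.4 ± 2.41. In miR-21-KD tumours Tnfrsf1a was again highest, at 91.1 ± 5.24, the levels of Tnfrsf1b, Tnfrsf9 and Tnfrsf12a were 61.5 ± 6.90, 56.1 ± 14.997 and 55.6 ± 29.6, and the highest ligand was Ltb at 22.8 ± 6.63. Tnfrsf19 went from 19.1 ± 8.05, the seventh level of the members, to 2.86 ± 1.11. At the other end, by the means, Eda was lowest in VC tumours (0.0648 ± 0.0458) and Edar in miR-21-KD tumours (0.154 ± 0.101). Eda was at 0.223 ± 0.106 in miR-21-KD tumours.

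**Figure D5:**
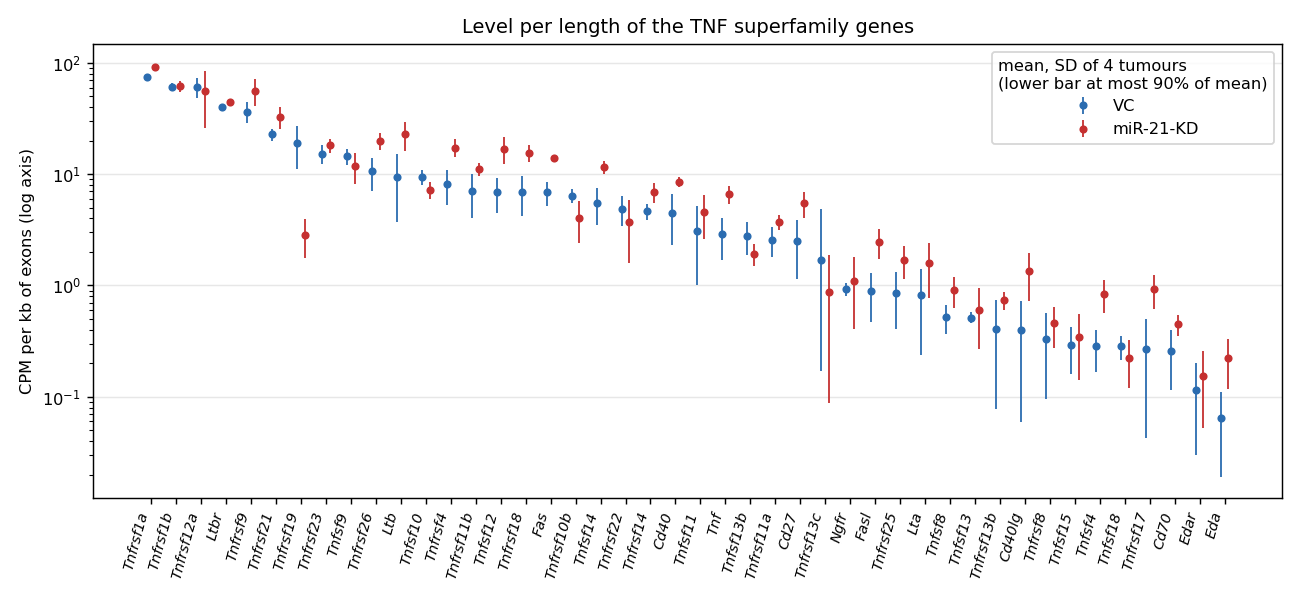
Mean level per length (CPM per kb of exons, log axis) of the 44 members with an annotated exon length, in order of the VC mean, with SD over 4 tumours and VC in blue and miR-21-KD in red. Lower bars are drawn to at most 90% of the mean, and Tnfrsf19 is the gene with the widest gap in which red lies below blue.

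Several members are neighbours in the genome (GRCm38, within 200000 bases). Ltb (chr17:35194507-35196305), Tnf (chr17:35199367-35202007) and Lta (chr17:35203165-35205578) lie side by side, and their log2 fold changes were 1.28, 1.20 and 0.96, of which the first 2 passed. Tnfrsf4 (chr4:156013595-156016613) and Tnfrsf18 (chr4:156026322-156028894) were both higher, with log2 fold changes of 1.09 and 1.18. In the cluster of Cd27, Ltbr and Tnfrsf1a (chr6:125232620-125362483) the changes were 1.12, 0.15 and 0.29, in that of Tnfsf9, Cd70 and Tnfsf14 on chromosome 17 Tnfsf14 alone was called, and in that of Tnfrsf26, Tnfrsf22 and Tnfrsf23 Tnfrsf26 alone.

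Genes that act beside or below the receptors were read from lists written from general knowledge. Of 71 such genes tested, 26 were higher and 6 lower, with a median log2 fold change of 0.19. This is 36.6% and 8.45%, against 19.6% and 19.5% of all tested genes, whose median was -0.01. With the replicate block 26 were higher and 9 lower, of which Icam1 was gained among the higher and Map3k14, Tnfaip2 and Traf2 among the lower genes, while Bcl3 was lost. Without VC replicate 4 the count was 22 and 9. Without the NF-kappaB target genes 52 were left, 18 higher and 5 lower. The count over all 71 was 17 higher and 2 lower without VC replicate 2 and 15 and 2 without VC replicate 3, and without miR-21-KD replicate 3 or 4 the lower genes were 3. Among 19 adaptors and kinases 5 were higher and 2 lower. Traf6, an adaptor of CD40 and RANK, rose from 49.2 ± 7.28 to 75.7 ± 6.60 CPM (SD, n = 4 each, adjusted p = 0.00777 from edgeR), and Ripk1 and Ikbkb, kinases of the TNF receptor complex and of NF-kappaB activation, had log2 fold changes of 0.48 and 0.45. Traf1, itself an NF-kappaB target, fell from 122 ± 22.7 to 75.8 ± 18.3 CPM (adjusted p = 0.0231 from edgeR), a call lost without VC replicate 2 or 3 or miR-21-KD replicate 1, 3 or 4 (adjusted p at most 0.0665), and Tab3 fell by 0.37 on the log2 scale. Of 9 genes of death and survival 4 were higher, among them Birc3 (log2 fold change 0.57), Birc2 (0.28) and Ripk3 (0.57), and Casp8, the caspase below Fas, was lower (-0.30, adjusted p = 0.0272 from edgeR). Of 10 ubiquitin editing genes Tnip1, Tnip2 and Tnfaip3, which restrain NF-kappaB, were higher by 0.46, 0.53 and 0.58, and Otud7b was lower (-0.59). The calls of Tab3, Birc2, Ripk3, Casp8, Tnfaip3, Rel and Rhbdf1 were each lost in 3 to 6 of the 8 omissions, with an adjusted p of at most 0.109, and that of Bcl3 was lost in 7, without VC replicate 4 among them (adjusted p = 0.102). Among the other alternatives Birc2 and Bcl3 were lost with library size scaling and without the filter on low counts (adjusted p of Birc2 at most 0.0673), and Tab3 with a minimum of 10 counts in every tumour (0.0580).

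Of 10 NF-kappaB subunits and inhibitors 4 were higher, among them Relb (0.38), Rela (0.30) and Rel (0.82), and none was lower. The higher genes of this list were 3 with the replicate block and 2, a share of 20.0%, without VC replicate 4. Over all genes 3309 of 14382 were higher with the block and 2980 of 14599 without VC replicate 4. With all tumours 19.6% of all tested genes were higher. Of 19 NF-kappaB target genes tested 8 were higher and 1 was lower. Sod2 rose from 87.3 ± 12.1 to 139 ± 4.72 CPM, Ccl5 from 19.3 ± 9.91 to 72.6 ± 22.1 CPM and Bcl2a1b from 20.4 ± 6.30 to 51.1 ± 11.9 CPM (SD, n = 4 each), while Ccl2 fell from 289 ± 52.0 to 183 ± 14.1 CPM (adjusted p = 0.00932 from edgeR). Of 4 genes of ligand shedding, Rhbdf2, which brings the TNF sheddase Adam17 to the cell surface, was higher by 0.76 (adjusted p = 0.00664 from edgeR), its relative Rhbdf1 was lower (-0.39), and Adam17 and Adam10 did not pass, of which Adam10 was lower without VC replicate 4 (adjusted p = 0.0119). Relt and Eda2r, receptors of the superfamily that the choice by name did not take in, were both higher, Relt from 12.5 ± 2.44 to 24.4 ± 3.34 CPM and Eda2r, a second receptor of ectodysplasin, from 1.02 ± 0.219 to 3.54 ± 1.69 CPM (SD, n = 4 each, adjusted p = 0.00663 and 0.0118 from edgeR).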

How the data were processed

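RNA sequencing of 8 tumours (4 VC, 4 miR-21-KD) was analysed. The table deposited by the authors holds raw read counts for each Entrez gene, 1 column per tumour and not normalized. The submitters' processing notes name Subread, featureCounts and the build mm10, without versions. The strand setting and annotation are not given in the sources used here, so reads of genes that overlap or share sequence may be lost or divided. Symbols were matched for 25275 of 27179 identifiers.

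Members, gene lists and tests were chosen with earlier results of these data known. In edgeR 4.0.16 (R 4.3.3), filterByExpr (minimum count 10, minimum total 15) kept 14382 genes with 99.852% of counts. TMM factors and the robust quasi-likelihood test were used, with Benjamini-Hochberg adjustment over all genes and a threshold of 0.05. Intervals are from the fitted standard error. Levels per length divide CPM by the exon length of GENCODE (GRCm38). Values in every tumour are given for members past the threshold, for the best further member of each role and for their partners, and from each pathway list up to 3 genes per direction are named. Alternatives were DESeq2 1.42.0, library size and upper-quartile scaling, no filter, a minimum of 10 counts in each tumour, limma-voom (limma 3.58.1) with and without quality weights, a replicate block and leaving out each tumour. Same-numbered tumours correlated after removal of group means (0.272, 0.421, 0.175 and 0.376 for replicates 1 to 4). Because of these correlations the block is given where it changes a call. The 12 other combinations had a mean of -0.105, which the removal of group means largely fixes once the same-numbered values are given. The labels name no shared animal or day. Totals are 12134849 to 13592695 counts per tumour, and no 2 tumours of a group agreed within sampling noise.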

Additional observations from a re-analysis of the deposited data

Results flagged for a closer look

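In each group of 4 tumours the highest and lowest values were compared with the rest by Dixon's ratio (critical value 0.83), over 116 groups of members and marker sums, of which chance flags about 1 in 20. VC replicate 4 stood out in Tnfrsf13c (13.2 CPM, others at most 0.319), Tnfrsf13b (2.53 CPM, others at most 0.811), Tnfrsf8 (2.37 CPM, others at most 0.885) and, as the lowest, Tnfrsf22 (11.5 CPM, others at least 22.9). The same tumour had the highest sums of B cell markers (215.6 CPM) and of plasma cell markers (1800 CPM, others at most 522). In the miR-21-KD group replicate 4 stood out in Tnfrsf13c at 4.85 CPM.

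In miR-21-KD replicate 3 the values of Cd27 (7.79 CPM, others at least 13.8), Fasl (2.60 CPM, others at least 5.33) and Tnfrsf4 (17.2 CPM, others at least 25.4) were the lowest of the group, and its sum of T cell markers was the lowest of the group as well, at 447 CPM. Tnfrsf9 was highest in miR-21-KD replicate 1 (213 CPM, others at most 139). In VC replicate 1 Tnfsf14 (15.8 CPM, others at most 8.86), Tnfrsf11b (32.2 CPM, others at most 17.1) and Edar (0.885 CPM, others at most 0.315) stood above the rest. Cd70 reached 0.394 CPM in VC replicate 3, which is 5 counts. No explanation of these values was tested.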

How the results depend on the processing

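Of the 17 members called, 14 were called in every alternative other than the omissions in which they were tested, and Cd40lg, Tnfrsf1a and Tnfrsf9 were lost when genes with low counts were kept. Of the 23 members not called, 13 passed in no alternative or omission. Members called higher were 14 to 23 over the 8 alternatives other than the omissions and 6 to 21 over the omissions. Members called lower were 2 with limma-voom, 3 with quality weights and 1 to 2 over the omissions. Signalling genes called lower were 12 with quality weights, and over the omissions 15 to 25 were higher and 2 to 9 lower. Over all genes the omissions gave 1449 to 3290 higher and 1487 to 3550 lower genes. DESeq2 called 3439 higher and 3111 lower genes, and limma-voom with quality weights 4041 and 4138. Omissions leave fewer tumours for the test, and the cause of the other differences was not tested.

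With the replicate number as a block, 20 members were higher and 1 was lower. The 4 gained were Cd27, Tnfrsf11b, Tnfrsf14 and Tnfrsf25, and the block changed the call of no other member. Over all genes the block gave 3309 higher and 3176 lower genes, against 2826 and 2800 without it, so it gave more calls in both directions. The counts of markers without VC replicate 4 or with the block and the marker sums without the most abundant gene were added after seeing the data.

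Directions turned only in members that were not called. Tnfrsf1b went from 0.00 on the log2 scale to -0.022 with library size scaling, -0.029 without the filter, -0.0031 with quality weights and -0.070 to 0.048 over the omissions. Ngfr was at -0.0025 with quality weights. Over the omissions Ngfr ranged from -0.12 to 0.48, Tnfrsf12a from -0.45 to 0.16, Tnfsf13 from -0.22 to 0.43, Tnfsf13os from -0.071 to 0.35 and Tnfsf15 from -0.19 to 0.57. Depth limits the members with few counts, such as Eda, Cd40lg and Tnfsf4, and the 5 members not tested.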
